A study of Homo sapiens with 10 samples.

Results

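The genes described here are the neurotrophins and their receptors, listed by name: the ligands BDNF, NTF3 and NTF4, the kinase receptors NTRK2 and NTRK3, the pan-neurotrophin receptor NGFR, and the sorting receptors SORT1 and SORCS1. Of these 8 genes, 6 had a row of the expression table annotated to exactly 1 symbol (BDNF, NTF4, NTRK2, NTRK3, NGFR and SORCS1), among 14232 genes with such a row, and each of the 6 had 1 row only. NTF3 and SORT1 had no such row and were not analysed here. Values came from Affymetrix exon arrays hybridised with RNA of SH-SY5Y, an established human neuroblastoma line of sympathetic lineage. There were 5 arrays of cells exposed to paraquat (numbered 8, 12, 14, 18 and 20 in the sample titles) and 5 of untreated control cells (7, 11, 13, 17 and 19). Paraquat is a herbicide that accepts electrons inside cells and passes them to oxygen, which yields superoxide. The sources used here state neither dose nor exposure time. All arrays share the 1 cell line, and nothing tells whether replicate arrays were separate cultures, so each p-value reflects spread between arrays that may be only technical.

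Neurotrophins are secreted proteins that are made as longer precursors and cut to the mature form. Mature BDNF and NTF4 bind TrkB, the product of NTRK2, and mature NTF3 prefers TrkC, the product of NTRK3; both receptors are tyrosine kinases that signal through RAS and ERK, PI3K and AKT, and phospholipase C. The p75 receptor encoded by NGFR has no kinase; it binds all neurotrophins and, with sortilin (SORT1) as partner, their precursors. SORCS1 belongs to the same VPS10P-domain family as sortilin and sorts membrane proteins within neurons. In neuroblastoma, TrkB is known as the receptor through which BDNF sustains survival, and SH-SY5Y cells are widely used to study it.

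After paraquat, BDNF fell by 0.54 on the log2 scale, with every treated array below every control array. NTRK2, which encodes its receptor TrkB, fell by 0.52 in a call that several other settings ended. NTF4, NTRK3, NGFR and SORCS1 did not pass the test, with log2 changes of 0.32, -0.02, 0.03 and -0.21. At an adjusted p under 0.05 in limma, over all 22011 rows of the table, 2 of the 6 measured genes fell and 0 rose. Over all genes, 14.2% fell and 9.55% rose, 23.8% in either direction, and 2 of 6 genes is too small a count to be read against that background. The excess of falls depended on scaling. Over all rows, 1873 rose and 2524 fell as deposited, and 2127 rose and 2392 fell with quantile normalization. With the arrays centred on their medians the excess was gone (2241 rose and 2211 fell). The median log2 change was -0.11 over the 6 genes and -0.0041 over all genes.

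**Figure D1:**
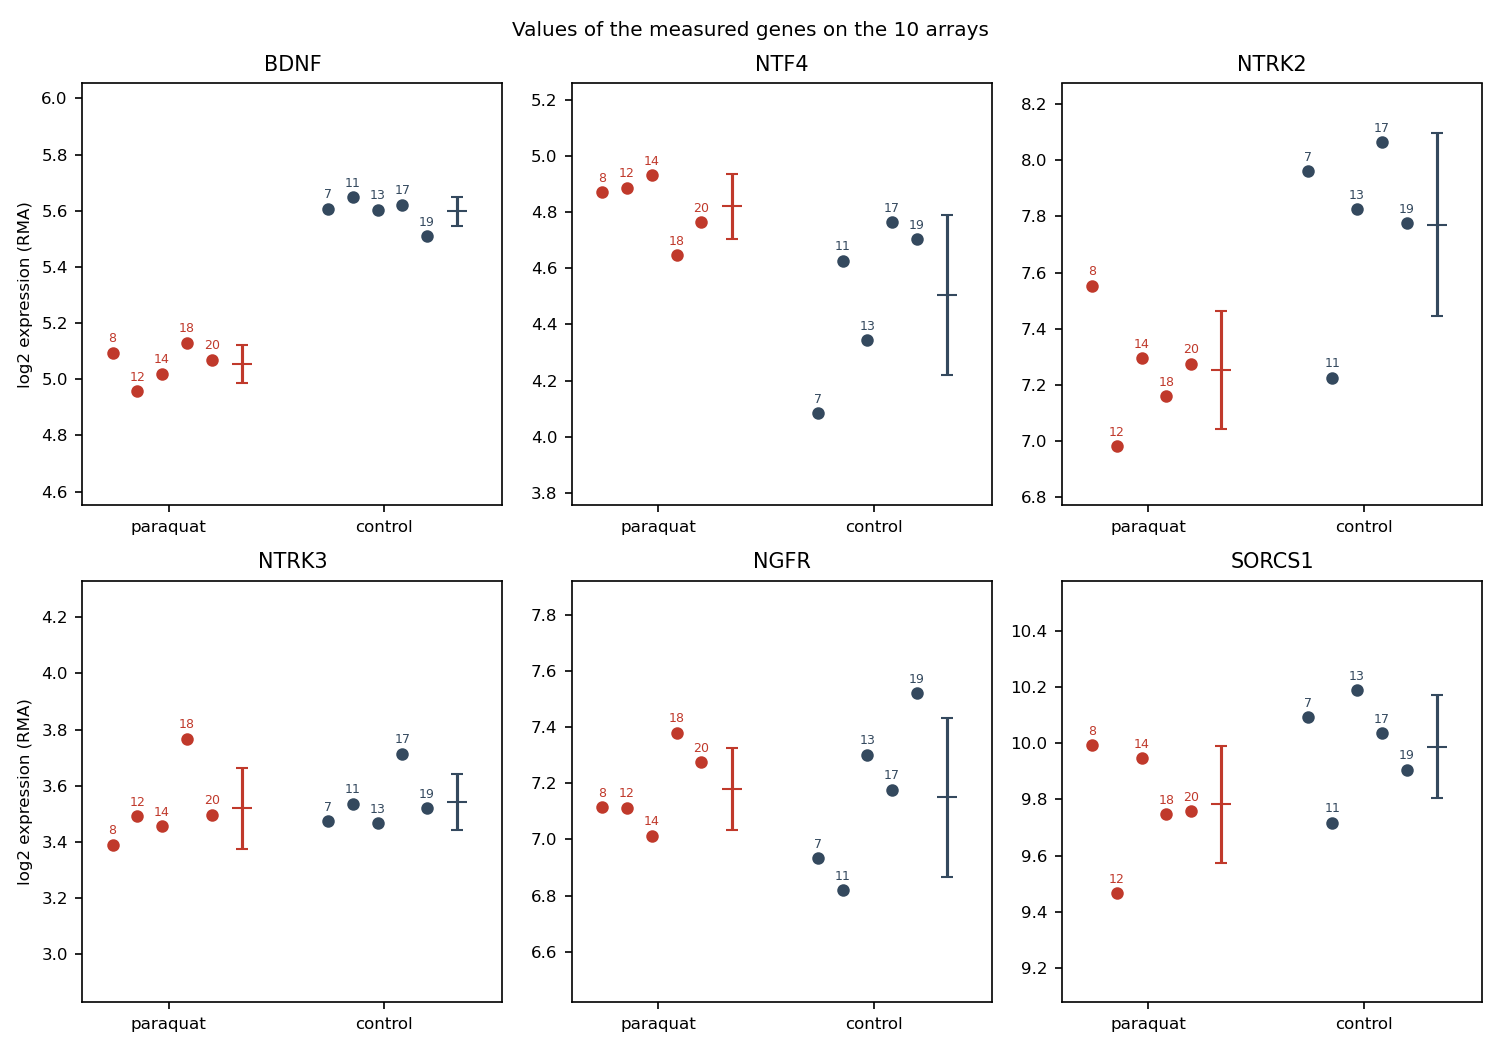
Log2 expression (RMA values, vertical axes, each spanning the same number of units) of the 6 measured genes on the paraquat arrays (red) and the control arrays (dark), with array numbers; bars give the mean ± SD of 5 arrays. The BDNF values of the paraquat arrays lie between 4.96 and 5.13, all below the control arrays at 5.51 to 5.65, whereas the groups overlap for the other 5 genes.

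BDNF, brain-derived neurotrophic factor, on chromosome 11 (transcript cluster 3367231), had log2 values of 5.10, 4.96, 5.02, 5.13 and 5.07 on paraquat arrays 8, 12, 14, 18 and 20, against 5.61, 5.65, 5.60, 5.62 and 5.51 on control arrays 7, 11, 13, 17 and 19. Every paraquat array was below every control array, and the arrays of each group lay close together. The means were 5.05 ± 0.07 in paraquat cells and 5.60 ± 0.05 in control cells (SD, n = 5 arrays each). The log2 change was -0.54 ± 0.07 (moderated SE, 95% interval -0.70 to -0.39), a level 31.4% lower after paraquat, with a limma adjusted p of 0.000331. BDNF was the 1 gene among the 6 whose groups did not overlap, and the groups did not overlap for 19.9% of all genes. A transcript cluster is a set of exon probes summarised to 1 value per locus, so the several BDNF transcripts that start at different promoters and share their coding exon could not be told apart. The row mean stood at the 31.1st percentile of all rows, in the dimmest 33.3% of the table, where RMA shrinks fold changes and no detection call was at hand.

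NTF4, neurotrophin-4, on chromosome 19 (transcript cluster 3867660), is the other measured ligand of TrkB. Its values were 4.87, 4.89, 4.93, 4.65 and 4.76 on paraquat arrays 8, 12, 14, 18 and 20, against 4.08, 4.63, 4.34, 4.76 and 4.70 on control arrays 7, 11, 13, 17 and 19. All 5 paraquat arrays were above the control mean, but the groups overlapped because control arrays 17 and 19 reached the paraquat range. The change of 0.32 ± 0.13 did not pass (limma adjusted p = 0.132, 95% interval 0.02 to 0.61), and the row lay at the 24.3rd percentile of brightness. The exact two-sided permutation test of the 10 values gave p = 0.0397, not adjusted over rows, where 0.00794 is the smallest p that 5 against 5 arrays allow.

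NTRK2, on chromosome 9 (transcript cluster 3177111), encodes TrkB in a full-length form with the kinase domain and in truncated forms without it, which 1 value per locus does not separate. It measured 7.55, 6.98, 7.30, 7.16 and 7.28 on paraquat arrays 8, 12, 14, 18 and 20, against 7.96, 7.23, 7.83, 8.06 and 7.78 on control arrays 7, 11, 13, 17 and 19. All paraquat arrays lay below the control mean, and the overlap came from control 11, which was lower than paraquat arrays 8, 14 and 20. NTRK2 averaged 7.25 ± 0.21 in paraquat cells and 7.77 ± 0.33 in control cells (SD, n = 5 arrays each). It fell by 0.52 on the log2 scale (SE 0.16, 95% interval -0.87 to -0.17), a level 30.1% lower, at a limma adjusted p of 0.0422. That call ended after centring the arrays on their medians (adjusted p = 0.0648), after quantile normalization (0.0771) and without any 1 of control 7, 13, 17 or 19 or paraquat 12, 14, 18 or 20 (0.0662 to 0.105). Without control 11 the change was -0.65 (adjusted p = 0.00331), and without both control 11 and paraquat 12 it was -0.59 (adjusted p = 0.00535). These 2 arrays had the widest deviations from their group means over all rows, with an SD of 0.291 for paraquat 12, against 0.206 to 0.280 on the other paraquat arrays, and of 0.358 for control 11, against 0.215 to 0.274 on the other controls.

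**Figure D2:**
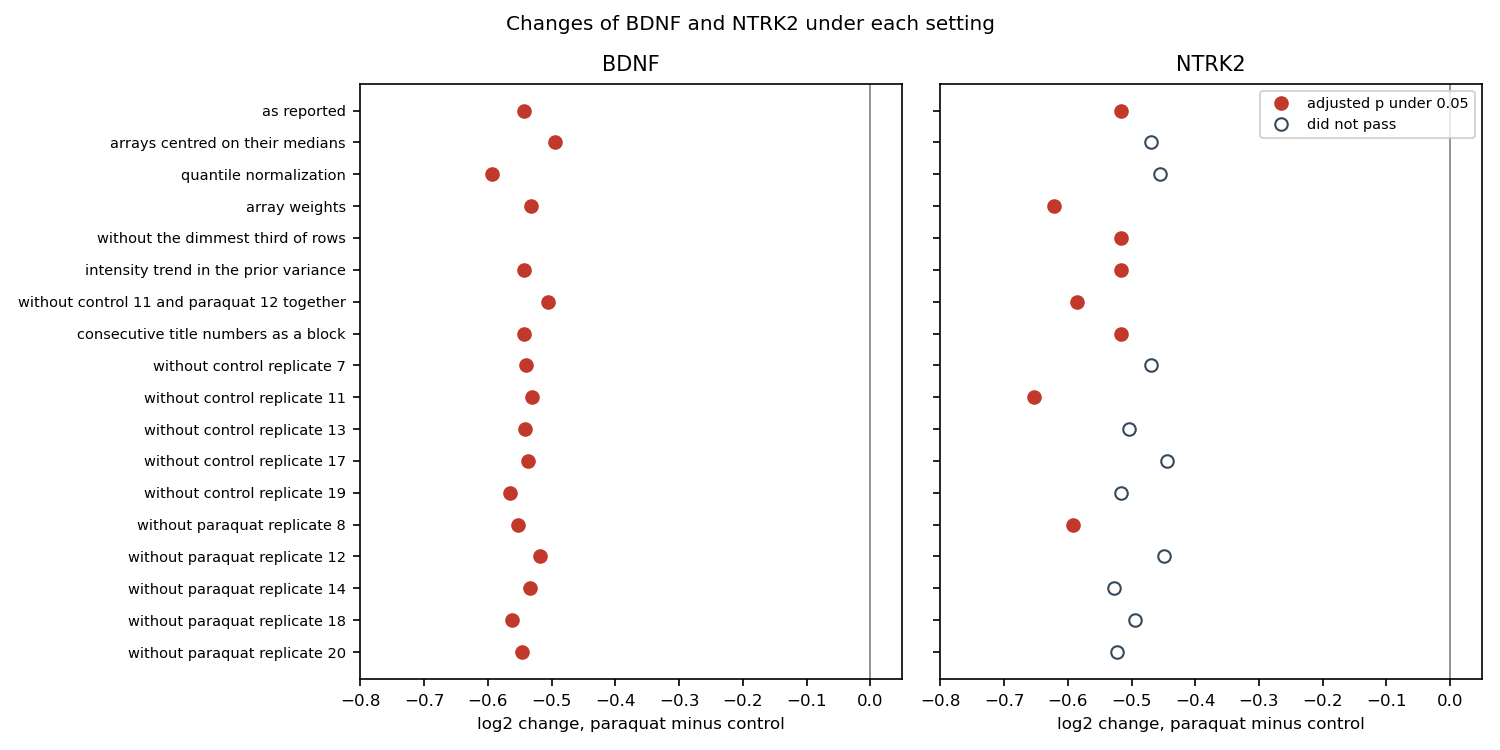
Log2 change of BDNF (left) and NTRK2 (right) as reported and under each other setting (rows); filled red points passed at an adjusted p under 0.05 and open points did not. BDNF stays between -0.59 and -0.49 and passes throughout (it has no value without the dimmest rows), while NTRK2 stays between -0.65 and -0.44 and passes in part of the settings.

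NTRK3, on chromosome 15 (transcript cluster 3637818), which encodes TrkC, was dim on every array, at 3.39, 3.49, 3.46, 3.77 and 3.50 on paraquat arrays 8, 12, 14, 18 and 20, against 3.47, 3.54, 3.47, 3.71 and 3.52 on control arrays 7, 11, 13, 17 and 19. The row stood at the 14.3rd percentile of brightness, and 1 array in each group, paraquat 18 and control 17, was above the rest. The groups overlapped throughout, and the log2 change was -0.02 ± 0.09 (limma adjusted p = 0.915). The 95% interval ran from -0.22 to 0.18, and the sign turned when the arrays were centred on their medians (0.03).

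NGFR, on chromosome 17 (transcript cluster 3725685), which encodes p75, had values of 7.11, 7.11, 7.01, 7.38 and 7.28 on paraquat arrays 8, 12, 14, 18 and 20, against 6.93, 6.82, 7.30, 7.18 and 7.52 on control arrays 7, 11, 13, 17 and 19. The paraquat arrays lay inside the range of the controls, whose SD of 0.28 was wider than the 0.15 of the paraquat arrays. The log2 change was 0.03 ± 0.14 (limma adjusted p = 0.925, 95% interval -0.27 to 0.33). Its row mean was at the 54.0th percentile of brightness.

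SORCS1, on chromosome 10 (transcript cluster 3305801), had the highest row percentile of the 6 genes, 91.3. It measured 9.99, 9.47, 9.95, 9.75 and 9.76 on paraquat arrays 8, 12, 14, 18 and 20, against 10.09, 9.72, 10.19, 10.03 and 9.91 on control arrays 7, 11, 13, 17 and 19. As with NTRK2, the lowest value of each group was on paraquat 12 and control 11. The groups overlapped, and the change of -0.21 ± 0.12 did not pass (limma adjusted p = 0.303, 95% interval -0.48 to 0.06). Brightness of rows depends on the probes, so the percentiles do not rank these genes by transcript number.

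**Figure D3:**
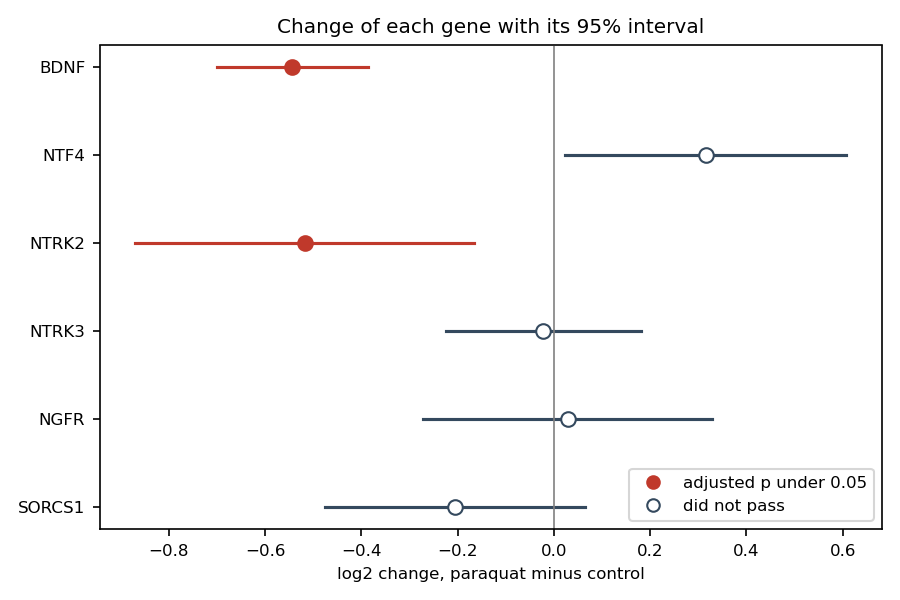
Log2 change, paraquat minus control (horizontal axis), of the 6 measured genes with 95% intervals from the limma fit; filled red points passed at an adjusted p under 0.05. The interval of BDNF runs from -0.70 to -0.39, that of NTRK2 from -0.87 to -0.17, and those of NTRK3, NGFR and SORCS1 include 0.

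Differences between 2 genes within an array are free of a constant log2 shift of the whole array, though not of quantile normalization. They were compared between the groups for all 15 pairs of the 6 genes, a step chosen after the data were seen. With the exact two-sided permutation test and Benjamini-Hochberg adjustment over the 15 pairs, 5 pairs passed, each at an adjusted p of 0.0476. BDNF minus NTF4 was 0.23 ± 0.17 in paraquat cells and 1.09 ± 0.30 in control cells (SD, n = 5 arrays each), a difference of -0.86 ± 0.15 (SE) between groups that did not overlap. BDNF also fell relative to NTRK3 (-0.52, again without overlap), NGFR (-0.57) and SORCS1 (-0.34), and NTF4 rose relative to NTRK2 (0.83). In these differences the 2 measured ligands of TrkB changed unequally whatever the shift of whole arrays, although NTF4 alone did not pass. Every passing pair holds BDNF or NTRK2, which were both already called, so these pairs are not separate evidence of their falls. BDNF minus NTRK2 was -2.20 ± 0.18 in paraquat cells and -2.17 ± 0.34 in control cells, a difference of -0.03 ± 0.17, so that no unequal change of ligand and receptor was detectable in these arrays. For NTRK2 the differences from NTRK3 (-0.50), NGFR (-0.55) and SORCS1 (-0.31) missed the threshold, each at an adjusted p of 0.0661 in the exact permutation test.

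**Figure D4:**
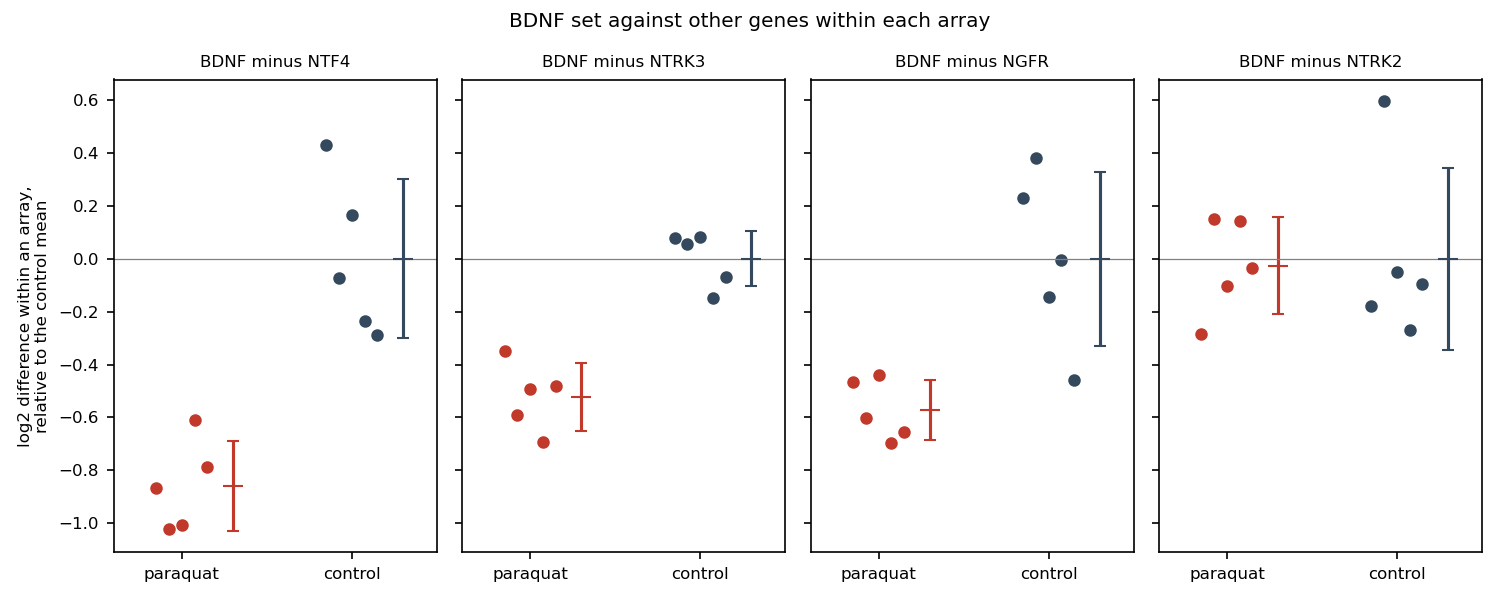
Log2 difference within each array between BDNF and NTF4, NTRK3, NGFR or NTRK2 (vertical axis, shifted so that the control mean is 0), for paraquat (red) and control (dark) arrays, with mean ± SD of 5 arrays. The mean of BDNF minus NTF4 lies 0.86 below the controls and that of BDNF minus NTRK2 lies 0.03 below them.

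BDNF and NTRK2 are the members that fell, and both are transcribed from several promoters, so their annotated start regions were searched for short sequences. RefSeq (GRCh38.p14) gave 5 start windows for BDNF and 4 for NTRK2, each 300 bases long (250 before and 50 from the start). The letters searched on both strands were TGACGTCA (the cyclic AMP response element, bound by CREB), TGANTCA (AP-1), CACGTG (E-box, bound by factors such as USF1) and TGACNNNGC (the core of the antioxidant response element, bound by NRF2). Of these windows, 3 of BDNF and 1 of NTRK2 held a match, and they are printed 5′ to 3′ on the transcribed gene's strand with the match in capitals. BDNF is on the minus strand and NTRK2 on the plus strand.
BDNF chr11:27721981-27722280: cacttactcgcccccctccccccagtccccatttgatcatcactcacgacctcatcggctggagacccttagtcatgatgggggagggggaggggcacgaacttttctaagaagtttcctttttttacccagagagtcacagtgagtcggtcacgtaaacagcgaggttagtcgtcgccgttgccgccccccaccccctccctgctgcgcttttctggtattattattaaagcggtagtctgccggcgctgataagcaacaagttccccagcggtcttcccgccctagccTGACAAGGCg
BDNF chr11:27720730-27721029: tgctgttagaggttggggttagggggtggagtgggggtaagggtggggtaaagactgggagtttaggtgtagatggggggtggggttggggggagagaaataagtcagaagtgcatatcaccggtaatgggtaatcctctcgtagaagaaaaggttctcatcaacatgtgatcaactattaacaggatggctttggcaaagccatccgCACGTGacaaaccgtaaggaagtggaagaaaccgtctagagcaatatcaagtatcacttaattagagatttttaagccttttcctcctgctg
BDNF chr11:27701572-27701871: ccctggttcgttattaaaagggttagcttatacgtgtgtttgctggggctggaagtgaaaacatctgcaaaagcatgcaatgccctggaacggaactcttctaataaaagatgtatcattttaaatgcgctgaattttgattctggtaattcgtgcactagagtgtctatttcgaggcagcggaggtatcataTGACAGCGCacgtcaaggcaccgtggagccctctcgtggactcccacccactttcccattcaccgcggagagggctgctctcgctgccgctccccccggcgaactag
NTRK2 chr9:84670099-84670398: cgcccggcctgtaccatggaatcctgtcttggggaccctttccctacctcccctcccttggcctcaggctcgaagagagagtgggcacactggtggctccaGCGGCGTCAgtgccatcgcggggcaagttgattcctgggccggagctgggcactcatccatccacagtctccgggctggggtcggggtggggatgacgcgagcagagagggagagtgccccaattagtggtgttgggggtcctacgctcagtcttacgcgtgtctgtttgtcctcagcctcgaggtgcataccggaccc

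The first BDNF window held the antioxidant core from base 41 downstream of the start, the next an E-box beginning 42 bases upstream, and the third the antioxidant core beginning 57 bases upstream. In the NTRK2 window the antioxidant core lay on the opposite strand, 149 bases upstream, so that its letters appear as their reverse complement. Among all 35116 promoter windows of the table, 13.3% held the antioxidant core, 7.26% the E-box, 7.71% the AP-1 letters and 1.85% the cyclic AMP response element. The share of all windows with any of these letters was not computed, so the counts of matched BDNF and NTRK2 windows have no like background. Over all members, 4 of 16 windows held a match. A match describes letters only, and the expression value of a locus does not say which start was used. The windows of NTF3, NTF4, NTRK3, SORT1 and SORCS1 held none of these letters; NGFR had no window in the table.

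The genes whose log2 values over the 10 arrays were most like those of BDNF, out of 14232, were LMO3 (a transcription cofactor, Pearson r = 0.989) and the replication-dependent histones H3C12 (0.988) and H2AC16 (0.987). LMO3 averaged 3.86 in paraquat cells and 7.33 in control cells, and the histone rows may share signal with near-identical copies. For NTRK2 they were NELL1, a secreted protein (r = 0.979), RAB27B, a GTPase of vesicle secretion (0.977), and LRP8, a lipoprotein and reelin receptor (0.974). These correlations describe arrays that fall into 2 groups, so each includes the group difference. After the group means were subtracted, NTRK2 was most like NELL1 (0.975) and the receptor kinase KIT (0.970), SORCS1 most like ROR1 (0.990) and MADD (0.989), and BDNF most like RPS4X (0.963) and NOD2 (0.935). For NGFR they were PAX5 (0.976) and MMP15 (0.959), for NTF4 TIMM17B (0.924) and GDF6 (0.891), and for NTRK3 NTN5 (0.967) and NCKAP1L (0.957). Each was picked as the highest out of 14232 genes over 10 arrays and was not tested, so it does not show shared regulation. RPS4X and NOD2 themselves did not pass (limma adjusted p = 0.670 and 0.603).

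Marker levels moved beside these values. Of 9 measured markers of sympathetic neuroblasts (such as PHOX2A, GATA3 and STMN2), 8 were brighter than the median row and 7 fell; their mean level was 8.61 to 8.81 on paraquat arrays and 9.51 to 9.65 on control arrays. Of 7 fibroblast and mesenchymal markers, 5 were also brighter than the median row, 1 fell and 0 rose. Their mean levels were 6.88 to 7.07 on paraquat arrays and 7.40 to 7.68 on control arrays. Of 4 leukocyte markers, 1 was brighter than the median row and 2 rose, with mean levels of 5.02 to 5.21 on paraquat arrays and 4.48 to 4.74 on control arrays. All 5 endothelial markers and 4 of 6 glial markers lay in the dimmest 33.3% of rows. The labels name 1 cultured cell line only, and whether any other cell type was present was not tested. The part of these shifts in the values of BDNF and NTRK2 was not tested either, and in bulk RNA fewer cells of a type and less RNA per cell cannot be told apart.

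The other genes of neurotrophin signalling were followed in 9 lists. Of 142 measured genes, 26 rose (18.3%, against 9.55% of all genes) and 19 fell (13.4%, against 14.2%), with a median log2 change of 0.06 against -0.0041 over all genes. These shares describe lists that were chosen with earlier results of these data known and were not tested as sets. Genes may stand in them because they had moved, so the shares are no like comparison with all genes.

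**Figure D5:**
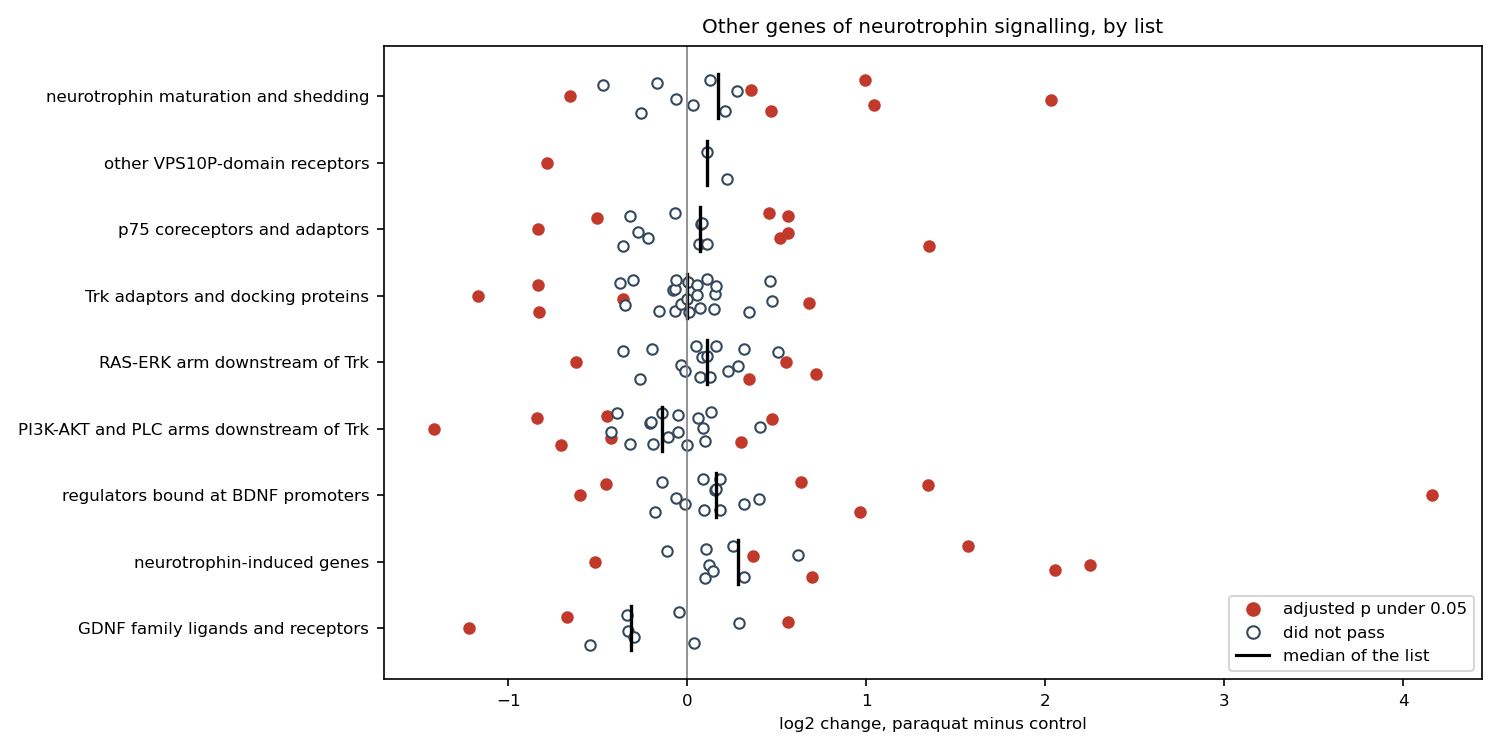
Log2 change, paraquat minus control (horizontal axis), of each measured gene in 9 lists of neurotrophin signalling; filled red points passed at an adjusted p under 0.05 and black bars are list medians. The point farthest to the right is BHLHE40 at 4.16, and the list medians lie between -0.32 and 0.29.

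Among 14 genes that mature neurotrophin precursors or shed their receptors, 5 rose and 1 fell (median 0.17). PLAT, tissue plasminogen activator, whose product generates the plasmin that cuts proBDNF outside cells, was at 10.61 to 11.06 on paraquat arrays (median 10.91) and at 9.60 to 9.96 on control arrays (median 9.78). It rose 2.06-fold (log2 change 1.05 ± 0.11, limma adjusted p = 6.86e-05). PLAU, the urokinase plasminogen activator, rose by 0.99 and the matrix metalloproteinase MMP3 by 2.03, with a dim control mean of 3.62. FURIN, the convertase that cuts proneurotrophins inside the secretory pathway, rose by 0.35 (limma adjusted p = 0.0285), a call that ended without any 1 of control 7, 11, 17 or 19 or paraquat 14, 18 or 20 (0.0522 to 0.0692). APH1B, a gamma-secretase subunit, fell by 0.66.

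Of the other VPS10P-domain receptors, SORL1 fell and SORCS2 and SORCS3 did not pass. SORL1, which sorts amyloid precursor protein and TrkB in neurons, was at 6.05, 5.44, 6.10, 6.25 and 6.31 on paraquat arrays 8, 12, 14, 18 and 20, against 6.86, 6.39, 7.00, 6.95 and 6.90 on control arrays 7, 11, 13, 17 and 19. The groups did not overlap, and control 11 stood below the other controls. Its log2 change was -0.79 ± 0.17 (limma adjusted p = 0.00805). SORCS2, a proneurotrophin coreceptor of p75, had a change of 0.11 (adjusted p = 0.33) and SORCS3 one of 0.22 (adjusted p = 0.127); SORCS3 passed without control 19 (0.29, adjusted p = 0.0442) and with array weights (0.26, adjusted p = 0.0386).

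Of 16 coreceptors and adaptors of p75, 5 rose and 2 fell (median 0.07). MAGED1, also called NRAGE, which binds the cytoplasmic part of p75, averaged 9.64 ± 0.10 in paraquat cells and 10.47 ± 0.12 in control cells (SD, n = 5 arrays each). It fell by 0.83 (limma adjusted p = 6.33e-05) without overlap. BEX3, another binding partner of p75, fell by 0.50 (adjusted p = 0.0431), a call lost after median centring (0.0649) and without any 1 of control 17 or 19 or paraquat 8, 14, 18 or 20 (0.0604 to 0.0931). The kinase RIPK2, which couples p75 to NF-kB, rose by 1.35 to 8.85 ± 0.39 in paraquat cells, against 7.50 ± 0.45 in control cells. TRAF4 (0.56), an adaptor of the TRAF family, and PRDM4 (0.56), a zinc finger protein that binds p75, also rose.

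Of 27 adaptors and docking proteins of the Trk kinases, 1 rose and 4 fell (median -0.0013). SHC3, a neuronal adaptor that couples Trk receptors to RAS, was at 6.45 to 6.80 on paraquat arrays (median 6.55) and at 7.61 to 7.94 on control arrays (median 7.68). It fell by 1.17 ± 0.10 (limma adjusted p = 1.36e-05). SLITRK5, a TrkB coreceptor in mouse neurons (-0.84, in the dimmest 33.3% of rows), and TIAM1, an activator of RAC (-0.83, with paraquat 14 above the other paraquat arrays), fell, and the insulin receptor substrate IRS2 rose by 0.68.

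Further down the pathway, 3 of 19 genes of the RAS and ERK arm rose and 1 fell (median 0.11). MAPK3, which is ERK1, fell by 0.62, and the ERK-activated kinase RPS6KA3 (0.72) and the inhibitor SPRED1 (0.55) rose. The inhibitor SPRY2 rose by 0.35 (limma adjusted p = 0.0287), a call that ended without any 1 of control 7, 13, 17 or 19 or paraquat 8, 12 or 14 (0.0523 to 0.0701), and control 11 was its highest control. Without control 11, 7 of the 19 genes passed in place of 4. Of 23 genes of the PI3K and phospholipase arms, 2 rose and 5 fell (median -0.14), a total of 7 that came to 4 without any 1 of control 7, 13 or 17 or paraquat 8, 12 or 20 and to 3 without paraquat 18. PIK3R3, a regulatory subunit of PI3K, averaged 7.72 ± 0.30 in paraquat cells and 9.14 ± 0.18 in control cells (SD, n = 5 arrays each) and fell by 1.42 (limma adjusted p = 6.61e-05). The calcium-dependent kinases CAMK4 (-0.84) and CAMK2G (-0.71) fell as well. PRKCD, a protein kinase C isoform, rose by 0.47 (adjusted p = 0.0264), with control 11 far below the other controls, and missed the threshold without paraquat 14, 18 or 20 (0.0523 to 0.0678).

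Among 18 transcription regulators known to act at BDNF promoters, 4 rose and 2 fell (median 0.16). BHLHE40, a basic helix-loop-helix repressor, was at 9.79 to 10.62 on paraquat arrays (median 10.32) and at 5.50 to 6.40 on control arrays (median 6.21). It rose 17.9-fold (log2 change 4.16 ± 0.19, limma adjusted p = 2.3e-07). NFIL3, a leucine zipper repressor (1.34), CREM, a CREB relative with activator and repressor forms (0.97), and MEF2D, an activity-regulated factor (0.64, with paraquat 12 below the other paraquat arrays), also rose. USF1, an E-box activator, fell by 0.60 (adjusted p = 0.0152).

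Genes known to be induced by neurotrophins rose in 5 of 14 cases and fell in 1 (median 0.29). VGF, a secreted neuropeptide precursor, was at 10.64 to 11.47 on paraquat arrays (median 11.30) and at 8.61 to 9.24 on control arrays (median 9.00). It rose 4.75-fold (log2 change 2.25 ± 0.17, limma adjusted p = 8.47e-06). SCG2, secretogranin II, rose by 2.05, the ERK phosphatase DUSP6 by 1.57 and the synaptic scaffold HOMER1 by 0.70 (the last with control 19 below the other controls, and not past the threshold without control 11 and paraquat 12 together, adjusted p = 0.0534). CHGB, chromogranin B, fell by 0.52 (adjusted p = 0.0195), a call lost after quantile normalization (0.0528) and without both control 11 and paraquat 12 (0.0537). These genes respond to many stimuli besides neurotrophins.

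Of 10 genes of the GDNF family, the other main trophic system of sympathetic cells, 1 rose and 2 fell (median -0.32). GFRA2, the neurturin coreceptor, was at 5.55, 5.52, 5.49, 5.21 and 5.39 on paraquat arrays 8, 12, 14, 18 and 20, against 6.75, 6.48, 6.91, 6.63 and 6.49 on control arrays 7, 11, 13, 17 and 19. The groups were well apart, with a change of -1.22 ± 0.11 (limma adjusted p = 2.07e-05), and the adhesion molecule NCAM1, an alternative GDNF receptor, fell by 0.67. The ligand PSPN, persephin, rose by 0.56 (adjusted p = 0.0266), a call that ended without any 1 of control 7, 11 or 19 or paraquat 8, 12, 18 or 20 (0.0515 to 0.0659), without control 11 and paraquat 12 together (0.0993) and with consecutive title numbers as a block (0.0603).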

How the data were processed

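Expression of SH-SY5Y cells was measured on 10 Affymetrix exon arrays, 5 paraquat and 5 control, grouped by sample title. The authors deposited log2 expression values made with RMA, per the submitters' processing notes; the sources used here name no software, version, filter or genome build, and the log2 scale was read from the range of values, 1.07 to 14.37. Array medians were 6.78 to 6.93. Of 22011 rows, 14432 had 1 symbol, 2408 several and 5171 none; the row with the highest mean stood for a gene. No detection calls were used, and the number of arrays limits precision (median standard error of a log2 change 0.13).

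All rows were fitted with limma 3.58.1 (R 4.3.3), unfiltered and unscaled, with group as the only term, 8 residual and 3.06 prior degrees of freedom, two-sided tests and Benjamini-Hochberg adjustment over all rows; the fit was tested on simulated data. Adjusted p-values of genes are limma's. Pairs of members were compared with exact permutation tests. The members and lists were chosen with earlier results of these data known. Named were all members, and in each list up to 4 called genes with the largest changes; FURIN, BEX3, USF1, CHGB, SORCS2 and SORCS3 were added after their values were seen. For likeness, the highest Pearson correlations were named. Scaling, weights, dim rows, variance trend, left-out arrays and a block of consecutive title numbers were varied.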

Additional observations from a re-analysis of the deposited data

Results flagged for a closer look

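Among the 6 members and the genes named by rule in the lists, 76 groups of 5 arrays were examined for a single array far from the rest (Dixon's ratio above 0.71), and 8 were found; chance alone marks about 1 group in 20. For NTRK3, paraquat 18 read 3.77, against 3.39 to 3.50 on the other paraquat arrays, and control 17 read 3.71, against 3.47 to 3.54 on the other controls. Control 11 was set apart for SORL1 (6.39, others 6.86 to 7.00), SPRY2 (10.58, others 10.25 to 10.34) and PRKCD (6.68, others 7.25 to 7.31). TIAM1 read 6.96 on paraquat 14 (others 6.49 to 6.59), MEF2D read 8.85 on paraquat 12 (others 9.23 to 9.34), and HOMER1 read 6.65 on control 19 (others 6.98 to 7.10).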

How the results depend on the processing

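BDNF kept its direction and passed in all 17 alternatives that gave it a value, with log2 changes from -0.59 to -0.49; it had no value without the dimmest 33.3% of rows. NTRK2 kept its direction in 18 of 18 but missed the threshold in 10: with median centring (-0.47), with quantile normalization (-0.46), and in 8 of the 10 fits that left out 1 array (-0.65 to -0.44 over all 10). The number of members called was then 1 in place of 2; it was also 1 without the dimmest rows, where NTRK2 was called and BDNF had no value, and 1 to 2 with 1 array left out. NTF4 (0.32) passed the unadjusted exact permutation test only, and was 0.21 (without control 7) to 0.38 with 1 array left out. NTRK3 and NGFR had changes near 0 whose sign turned: NTRK3 was 0.026 with median centring and -0.083 to 0.021 with 1 array left out, and NGFR was -0.038 without control 11 and paraquat 12 together and -0.054 to 0.12 with 1 array left out. SORCS1 stayed negative and uncalled in 18 of 18, at -0.27 to -0.13 (without paraquat 12) with 1 array left out. The number of rows called over the whole table stayed between 3396 and 6196, against 4397. Called genes in the lists came to 2 of the other VPS10P-domain receptors with array weights (1 to 2 with 1 array left out), 8 of the Trk adaptors with consecutive title numbers as a block, 6 of the GDNF family with array weights, 3 to 7 of the RAS and ERK arm and 3 to 9 of the PI3K and phospholipase arms with 1 array left out; the causes were not tested. Of 642 fits of the 38 named list genes, 604 kept direction and call, 36 (7 genes) lost a call, 2 gained one and 0 reversed. The groups share no title numbers, so pairing arrays by consecutive numbers is a guess; deviations of such pairs correlated at 0.09 to 0.46, and with them as a block 5379 rows were called and every member kept its call (NTRK2 adjusted p = 0.0125). No member had a further row to try.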
